A study of Mus musculus with 6 samples.

Results

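Chemokine genes Ccl20, Ccl17, Ccl22, Ccl19 and Ccl27a and the genes of their receptors, Ccr6, Ccr4, Ccr7 and Ccr10, were followed through the cell classes of mouse dorsal skin. These 9 genes were taken by symbol from the 31053 genes in the files. Ccl19 has 2 gene identifiers there, and the one on a scaffold had 0 UMIs, so 10 gene entries gave 9 genes. A UMI is a molecular identifier that marks 1 captured mRNA molecule, and all levels below are CPM, the gene's UMIs divided by all UMIs of the cells named and multiplied by 1000000. Gene positions are those of GRCm38 (mm10), and all 9 genes are protein coding.

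The single-cell libraries came from female C57BL/6J mice of 8 to 10 weeks in 3 groups of 2 libraries. Sham mice received no imiquimod, the IMQ group received 62.5 mg of 5% imiquimod cream on shaved back skin daily for 4 days, and the IMQ+SHP099 group received the same cream with 10 mg/kg of SHP099 by gavage daily for 4 days. Imiquimod is a Toll-like receptor 7 agonist whose cream gives psoriasis-like skin inflammation in mice, and SHP099 is an allosteric inhibitor of the phosphatase SHP2. Skin was dissociated without sorting, and each library pooled several mice, so the spread between libraries is not the spread between single mice. The labels give no genetic change in any group.

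Chemokines are small secreted proteins that steer cells bearing the matching receptor. Ccl20 binds Ccr6, the receptor of interleukin-17-producing T cells. Ccl17 and Ccl22, whose genes lie close together on chromosome 8, bind Ccr4, a skin-homing receptor of T helper and regulatory T cells. Ccl27a is a chemokine made by keratinocytes and held in the epidermis, and its receptor Ccr10 marks skin-homing T cells. Ccl19 binds Ccr7, which leads mature dendritic cells and naive T cells to lymph nodes.

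After the study's limits on UMIs, genes and mitochondrial share, 50850 of 55201 barcodes remained, with 51968673 to 170319612 UMIs per library and a median of 5645 to 18263.5 UMIs per cell. The first IMQ+SHP099 library was the deepest and the second the shallowest. Any 2 libraries shared 14 to 43 barcode sequences. Cells were placed in classes by marker genes that include none of the 9, and 14 of 14 keratinocyte, 10 of 10 fibroblast, 12 of 12 lymphocyte and 12 of 12 myeloid markers were over 2-fold higher inside their class than outside. For the subclasses the same held for 7 of 8 basal, 8 of 8 suprabasal and 7 of 8 upper follicle keratinocyte markers, for 7 of 9 epidermal gamma-delta T, 10 of 10 type 17 T, 7 of 7 regulatory T and 9 of 10 other alpha-beta T cell markers, and for 14 of 14 mature dendritic, 6 of 7 Langerhans and 9 of 10 Cd209a dendritic cell markers. The same markers placed the cells, so these counts describe the gate and are no independent test of the classes. Class names below mean cells like the named type by those markers. Keratinocytes ranged from 437 to 6079 cells per library and mature dendritic cells from 1 to 13. Which cells a dissociation releases was not measured, so levels within a class are the values to read. Within a class, a change in expression cannot be told apart from a change in which cells of the class were captured.

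The bases before the genes of 4 ligands are shown because the results that follow turn on their mRNA levels. They are RefSeq bases of GRCm38.p6 on the strand of the gene, 5′ to 3′, and end where the gene begins in the annotation of the files. Capitals mark matches, on either strand, to GGGNNNNNCC, the loose form of an NF-kB site, or to TTCNNNGAA and TTCNNNNGAA, the loose forms of STAT sites.
Ccl20, chr1:83116516-83116765, plus strand: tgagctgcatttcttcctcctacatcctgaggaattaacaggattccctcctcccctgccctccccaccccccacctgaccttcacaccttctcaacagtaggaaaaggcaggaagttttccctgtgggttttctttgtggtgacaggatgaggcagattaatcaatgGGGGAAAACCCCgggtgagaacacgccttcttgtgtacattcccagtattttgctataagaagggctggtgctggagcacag
Ccl27a, chr4:41774248-41774426, minus strand: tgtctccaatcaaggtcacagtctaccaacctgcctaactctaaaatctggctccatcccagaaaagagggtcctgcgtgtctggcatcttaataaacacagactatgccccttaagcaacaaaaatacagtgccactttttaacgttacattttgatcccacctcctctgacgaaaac
Ccl17, chr8:94810203-94810452, plus strand: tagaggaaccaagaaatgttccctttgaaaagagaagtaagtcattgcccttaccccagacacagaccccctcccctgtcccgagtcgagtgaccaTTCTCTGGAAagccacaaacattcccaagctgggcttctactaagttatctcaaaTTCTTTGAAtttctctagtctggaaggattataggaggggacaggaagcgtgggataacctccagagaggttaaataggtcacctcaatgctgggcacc
Ccl22, chr8:94745434-94745589, plus strand: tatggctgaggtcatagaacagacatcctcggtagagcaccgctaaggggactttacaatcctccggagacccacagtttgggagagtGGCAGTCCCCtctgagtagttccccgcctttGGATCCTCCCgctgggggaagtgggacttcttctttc
The Ccl20 bases held 3 overlapping matches to GGGNNNNNCC within bases 82 to 71 before the gene, and 45.4% of 27025 mouse promoters held a match in 250 bases. The Ccl17 bases held TTCNNNGAA at bases 99 to 91, found in 7.18% of promoters, and TTCNNNNGAA at bases 154 to 145, found in 5.86%. The Ccl22 bases held 2 matches to GGGNNNNNCC, found in 28.2% of promoters over the same 156 bases. The 179 bases before Ccl27a held no match to these motifs, and none of the 4 stretches held TGANTCA, the AP-1 motif, which 6.87% of promoters held in 250 bases. A match is a run of letters and not a site shown to be bound.

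The genes differed in the cell class with the highest mean level over the libraries. Ccl20 was highest in suprabasal keratinocytes, Ccl27a in upper follicle keratinocytes, Ccl17 and Ccl22 in mature dendritic cells and Ccl19 in fibroblasts. Ccr7 was highest in mature dendritic cells, Ccr6 in type 17 T cells, and Ccr4 and Ccr10 in regulatory T cells. For Ccr4 the ranges overlapped between neighbouring classes, from 0 to 153 in regulatory T cells and from 0 to 37.8 in the other alpha-beta T cells.

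**Figure D1:**
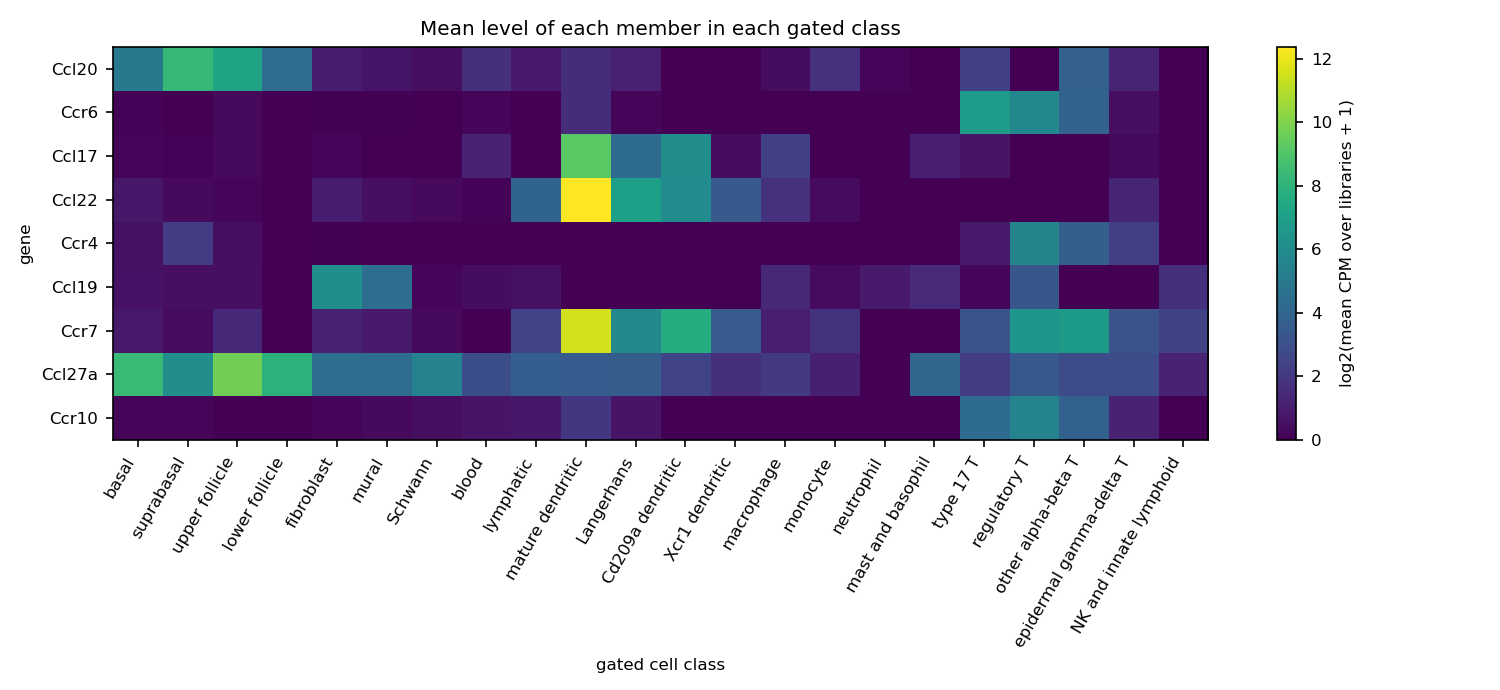
Mean level of each of the 9 genes in 22 cell classes, as log2 of the mean CPM over the libraries plus 1, with classes along the horizontal axis and genes along the vertical axis. Ccl20 and Ccl27a are brightest in keratinocyte classes, Ccl22 and Ccr7 in mature dendritic cells, Ccl19 in fibroblasts, and Ccr6 and Ccr10 in T cell classes.

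Ccl20 (chr1:83116766-83119167, plus strand) rose in keratinocytes with imiquimod, and more in the suprabasal than in the basal layer. In all keratinocytes, which held 94.2% to 99.0% of each library's Ccl20 UMIs, the level was 7.54 and 22.0 for Sham, 135 and 194 for IMQ and 386 and 125 for IMQ+SHP099. All 4 imiquimod-treated libraries lay above both Sham libraries. The edgeR quasi-likelihood test on the keratinocyte counts summed per library gave a log2 fold change of 3.85 ± 0.67 (SE, n = 2 libraries a group) for IMQ against Sham, adjusted p = 0.0102. In that comparison 12.6% of the 14204 genes tested were called, and of the 7 of the 9 genes that passed the filter on low counts 3 were called: Ccl20 higher, Ccl27a and Ccr4 lower. DESeq2 called 12.9% of the genes it tested and the same count of members. The share of all genes called higher was 5.13%, and the share called lower was 7.42%.

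In suprabasal keratinocytes Ccl20 was at 7.64 and 20.4 in the Sham libraries, 237 and 329 after imiquimod and 990 and 213 after imiquimod with SHP099. UMIs of it were found in 1.32% and 5.31% of suprabasal cells for Sham, 51.3% and 50% for IMQ and 73.1% and 48.9% for IMQ+SHP099. The groups with and without imiquimod did not overlap in this layer, in level or in share. With each cell thinned to 2000 UMIs, and shallower cells left out, the shares were 0.514% and 1.29% for Sham, 25.1% and 27.3% for IMQ and 51.3% and 20.5% for IMQ+SHP099. Basal keratinocytes, the layer on the basement membrane, had 6.02 and 26.1 in the Sham libraries, 24.9 and 9.98 after imiquimod and 67.4 and 50.5 after imiquimod with SHP099. There the IMQ libraries lay within the range of the Sham libraries. Fitted alone, basal cells gave 0.43 ± 0.56 (edgeR adjusted p = 0.615), where 20.7% of genes were called, and suprabasal cells 4.73 ± 0.77 (edgeR adjusted p = 0.00255), where 16.3% were called. The suprabasal change minus the basal change was 4.18 ± 0.68 on the log2 scale (edgeR with the library as a block, adjusted p = 0.00831), where 8.40% of genes were called. These fits by layer were chosen after the data were seen. In upper follicle keratinocytes the level was 2.01 and 3.79 for Sham, 69.9 and 204 for IMQ and 547 and 67.6 for IMQ+SHP099, again with no overlap between Sham and the other groups.

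Most Sham Ccl20 came from few cells. The 10 cells with the most Ccl20 UMIs held 66.7% and 71.2% of them in the Sham libraries, against 16.1% and 25.7% for IMQ and 4.61% and 41.3% for IMQ+SHP099. Outside keratinocytes Ccl20 was low: fibroblasts had 0 to 4.05 and lymphocytes 0 to 12.99 over the libraries. Each of these sums had its highest value in the first IMQ+SHP099 library, the library with the highest keratinocyte Ccl20.

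**Figure D2:**
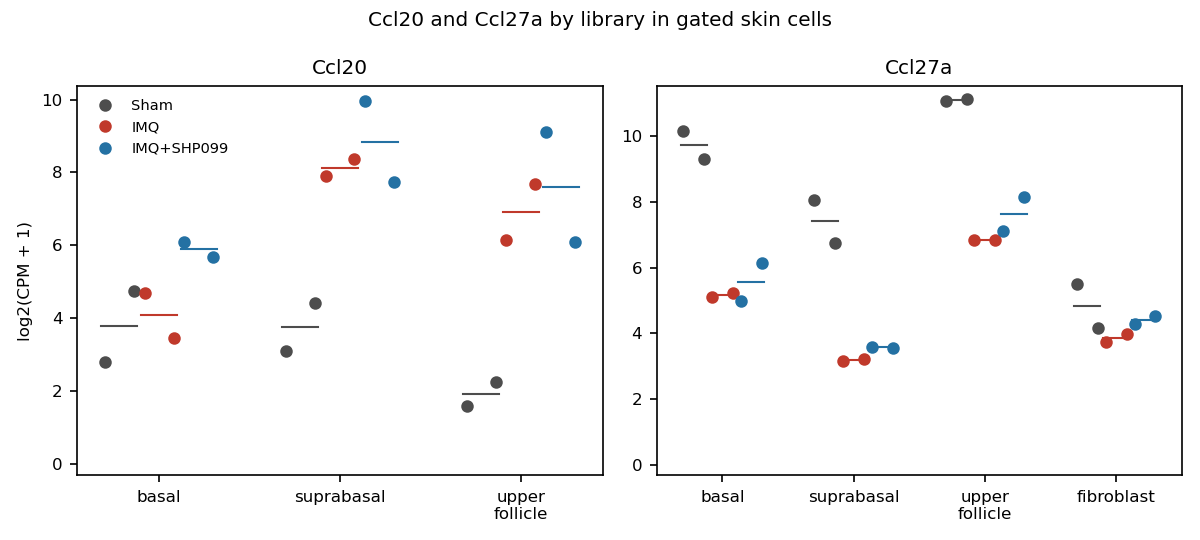
Ccl20 and Ccl27a by library in keratinocyte classes, as log2(CPM + 1) on the vertical axis. Points are libraries coloured by group, and each line is the mean of a group's 2 log2 values; suprabasal Ccl20 is higher and Ccl27a lower in every library given imiquimod than in either Sham library.

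Ccr6 (chr17:8236043-8257141, plus strand), the receptor of Ccl20, had its highest mean level in type 17 T cells. These cells had 112 and 129 in the Sham libraries, 75.5 and 172 after imiquimod and 71.5 and 95.9 after imiquimod with SHP099, and 25.0% to 56.9% of them held a UMI. The IMQ libraries overlapped with both other groups, while both Sham libraries lay above both IMQ+SHP099 libraries, with no test in this class. That order rests on few cells, 10 in the first Sham library with 3 bearing a UMI and 9 in the first IMQ+SHP099 library with 4. The shares of cells with a UMI overlapped, at 30.0% and 35.4% for Sham and 44.4% and 25.0% for IMQ+SHP099. Keratinocytes, which should lack the receptor, held a UMI in 0% to 0.39% of cells. Ccr6 was higher in type 17 T cells than in the other alpha-beta T cells in 6 of 6 libraries, by 3.8 (SD 2.14) on the scale log2(CPM + 1). The exact two-sided sign-flip test over the 6 libraries gave p = 0.03125, the smallest it can give, and an adjusted p of 0.141 over the 9 class pairs compared, 1 for each gene. Regulatory T cells had 0 to 86.5 and overlapped with type 17 T cells in level. In the class pair of Ccl20, upper follicle keratinocytes were above basal ones in 4 of 6 libraries, by 0.89 (SD 2.53) on the log2 scale (exact sign-flip p = 0.406, adjusted p = 0.406).

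In all lymphocytes together, Ccr6 was at 8.25 and 38.7 for Sham, 43.6 and 56.8 for IMQ and 14.4 and 44.0 for IMQ+SHP099. The edgeR log2 fold change for IMQ against Sham was 1.26 ± 0.66 (adjusted p = 0.425), and it was 0.63 without the first and 2.65 without the second Sham library, passing in none of 14 alternatives. The comparison called 0.0113% of the genes tested and 0 of the 5 members tested. At an unadjusted p under 0.05 there were 2 members, Ccl20 and Ccl27a, beside 1203 of the 8829 genes tested. DESeq2, which called 0.597% of genes, called 0 members. In lymphocytes Ccl27a went from 21.5 and 6.63 in Sham to 1.38 and 0 in IMQ (edgeR adjusted p = 0.288). The 14 keratinocyte markers summed to 1583 and 589 CPM in Sham lymphocytes, 595 and 359 in IMQ lymphocytes and 2378 and 353 in IMQ+SHP099 lymphocytes, with none at 0 in the Sham and IMQ groups, and their part in these Ccl27a values was not tested. Type 17 T cells numbered 10 and 48 in Sham and 172 and 51 in IMQ, so the lymphocyte sum held different numbers of the cells that carry Ccr6.

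Ccl27a (chr4:41769467-41774247, minus strand) fell with imiquimod in basal and in suprabasal keratinocytes. All keratinocytes had 842 and 400 in the Sham libraries, 29.4 and 38.7 after imiquimod and 32.5 and 94.1 after imiquimod with SHP099. The 4 imiquimod-treated libraries lay below both Sham libraries. The edgeR log2 fold change for IMQ against Sham was -4.01 ± 0.62 (adjusted p = 0.00627). The call held in 16 of 16 alternatives, which gave -4.63 to -3.00.

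Basal cells had Ccl27a at 1121 and 620 for Sham, 33.1 and 36.2 for IMQ and 30.5 and 69.5 for IMQ+SHP099. The share of basal cells with a UMI was 89.4% and 86.3% in Sham and 45.3% and 44.6% in IMQ. With each cell thinned to 2000 UMIs these shares were 72.9% and 54.9% in Sham and 6.29% and 6.03% in IMQ. Suprabasal cells had 263 and 107 in the Sham libraries, 7.88 and 8.35 after imiquimod and 11.0 and 10.8 after imiquimod with SHP099. Upper follicle cells were the highest, with 2115 and 2212 for Sham, 114 and 112 for IMQ and 136 and 279 for IMQ+SHP099. In each of these 3 classes the Sham libraries stood apart from the other 4. Fitted alone, basal cells gave -4.63 ± 0.55 (edgeR adjusted p = 0.00109) and suprabasal cells -4.28 ± 0.52 (edgeR adjusted p = 0.000514). Ccl27a was higher in basal than in suprabasal cells in 6 of 6 libraries, by 2.09 (SD 0.43) on the log2 scale (exact sign-flip p = 0.03125, adjusted p = 0.141).

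Fibroblasts held lower Ccl27a levels of 43.9 and 17.02 in the Sham libraries, 12.2 and 14.7 after imiquimod and 18.7 and 22.2 after imiquimod with SHP099. Their log2 fold change was -1.18 ± 0.51 (edgeR adjusted p = 0.420). In that comparison edgeR called 0.571% of genes and DESeq2 3.25%, and each called 0 of the 5 members tested. At an unadjusted p under 0.05 edgeR had 0 members and 1753 of the 14699 genes tested. The first Sham library carried the Ccl27a fold change, which was -0.034 without it and -1.85 without the second. Over 14 alternatives it ranged from -2.20 to -0.034 and passed only with no filter on low counts (-1.13, edgeR adjusted p = 0.00944). The keratinocyte change minus the fibroblast change was -2.83 ± 0.34 (edgeR with the library as a block, adjusted p = 0.00458), where 8.41% of genes were called. Keratinocyte markers summed to 473 to 945 CPM in Sham fibroblasts, 210 to 329 in IMQ fibroblasts and 186 to 835 in IMQ+SHP099 fibroblasts, and their part in the fibroblast values was not tested.

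Ccl27b, Gm13306 and Gm21541, also on chromosome 4, were counted beside Ccl27a as possible copies of it. Their sequences were not compared here, so the split of reads among these genes is uncertain. Ccl27b, Gm13306 and Gm21541 held 660, 46 and 1318 UMIs beside 97757 for Ccl27a. Ccl27b fell too, from 6.53 and 1.87 in Sham keratinocytes to 0.068 and 0 in IMQ keratinocytes (edgeR adjusted p = 0.00978). The Ccl27a gene also overlaps Il11ra1 by a few bases.

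Ccr10 (chr11:101172997-101175443, minus strand), the receptor of Ccl27a, was found in T cell classes. Regulatory T cells had 51.4 and 89.8 for Sham, 43.5 and 30.7 for IMQ and 28.5 and 26.3 for IMQ+SHP099, above 0 in all 6 libraries but on 1 UMI each in the second IMQ and both IMQ+SHP099 libraries. Type 17 T cells had 0 to 46.5 and the other alpha-beta T cells 0 to 37.8. These 3 classes overlapped. Epidermal gamma-delta T cells, the resident dendritic T cells of mouse epidermis, had 1.22 and 6.38 in the Sham libraries, from 4 UMIs in all. They were at 0 in the IMQ libraries, with 85 and 24 cells, and in the IMQ+SHP099 libraries, with 95 and 51 cells. The Sham levels rest on so few UMIs that a fall with imiquimod was not detectable at this depth. Epidermal gamma-delta T cells were above the other alpha-beta T cells in 0 of 6 libraries, with some libraries tied at 0. The difference was -2.10 (SD 1.68) on the log2 scale (exact sign-flip p = 0.125, adjusted p = 0.281). In all lymphocytes Ccr10 was at 5.78 and 29.3 in the Sham libraries, 13.1 and 13.9 after imiquimod and 4.33 and 5.40 after imiquimod with SHP099. Its log2 fold change for IMQ against Sham was -0.20 ± 0.62 (edgeR), smaller than its error.

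**Figure D3:**
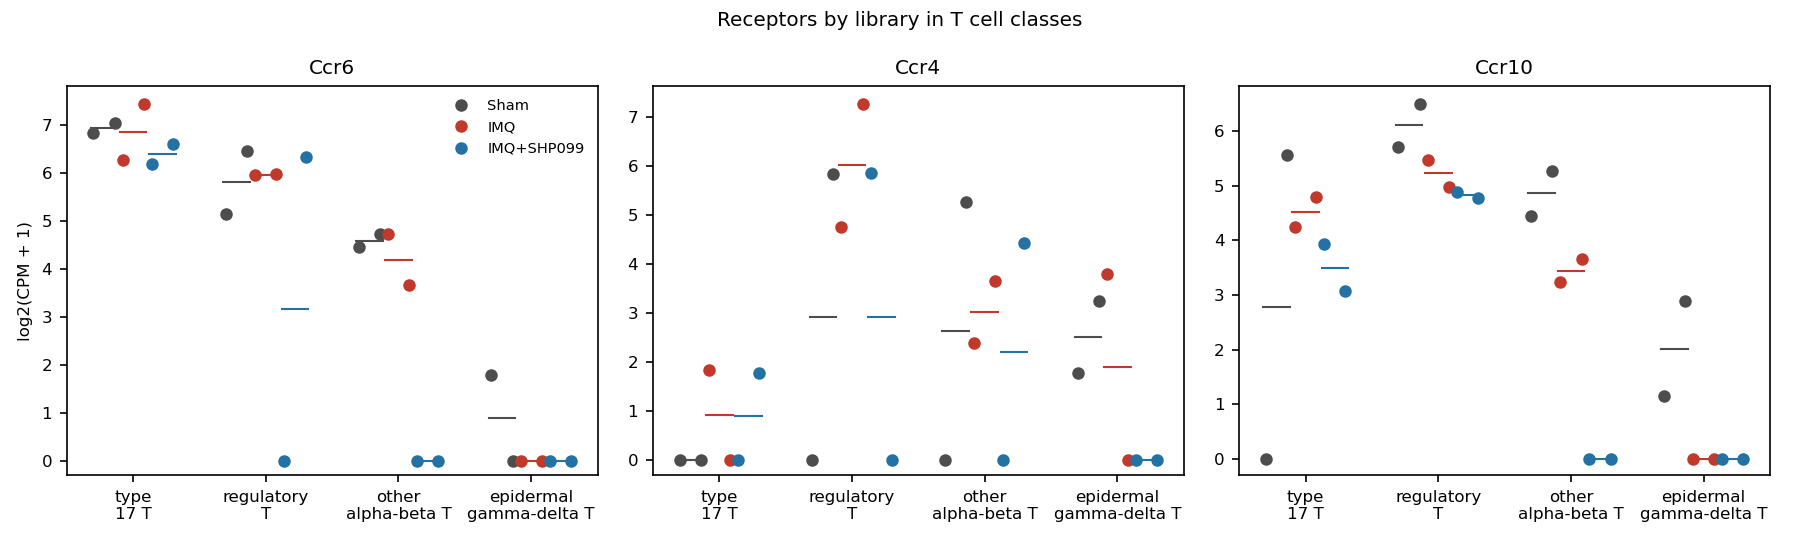
Ccr6, Ccr4 and Ccr10 by library in 4 T cell classes, as log2(CPM + 1) on the vertical axis, with points for libraries coloured by group and a line at the mean of a group's 2 log2 values. Ccr6 is above 0 in all 6 type 17 T cell libraries and Ccr10 in all 6 regulatory T cell libraries, while Ccr4 is 0 in 2 of the 6 regulatory T cell libraries.

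Ccl22 (chr8:94745590-94751699, plus strand) was carried by very few cells at high levels. Mature dendritic cells, a class of 40 cells in all, had 10407 and 9451 for Sham, 2377 and 4821 for IMQ and 2973 and 1636 for IMQ+SHP099. The Sham libraries lay above the other 4, from 1 to 13 cells a library, and no test was run in this class. That order covers only cells placed in the class. Given SHP099, the class held 254 Ccl22 UMIs, while myeloid cells of mixed subclass held 333 and cells mixed between main classes 332. Matching counts were 740, 222 and 10 for IMQ alone, and 1663, 26 and 29 for Sham. Whether these mixed cells include mature dendritic cells was not tested. Langerhans cells, the dendritic cells of the epidermis, had 139 and 9.21 in the Sham libraries, 121 and 93.7 after imiquimod and 333 and 60.02 after imiquimod with SHP099. Their groups overlapped in level, while the share of Langerhans cells with a Ccl22 UMI was 6.25% and 11.1% for Sham, 49.2% and 19.6% for IMQ and 48.4% and 30.4% for IMQ+SHP099. Langerhans cells of the first Sham library had a median of 5701.5 UMIs and those of the first IMQ library 19032, and with each cell thinned to 2000 UMIs the shares were 3.77% and 0% in the Sham libraries, 13.3% and 10.2% after imiquimod and 26.3% and 13.04% after imiquimod with SHP099.

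Ccl17 (chr8:94810453-94812036, plus strand) had 1623 and 1399.7 in Sham mature dendritic cells, 36.0 and 190 for IMQ and 283 and 0 for IMQ+SHP099, where the 0 is 1 cell. Langerhans cells had 0 in both Sham libraries, which at 3 UMIs allows up to 4.53 and 13.8, with 16.4 and 18.2 for IMQ and 16.7 and 63.8 for IMQ+SHP099. Cd209a dendritic cells, a dermal class, had 139 and 79.2 for Sham, 0 and 19.96 for IMQ and 154 and 0 for IMQ+SHP099. The 154 is from 5 cells, at the level of 3 UMIs there. The 19.96 is from 14 cells and the values of 0 from 21 and 10 cells. Mature dendritic cells with a Ccl17 UMI numbered 1 of 4 and 10 of 13 for Sham, 1 of 4 and 4 of 9 for IMQ and 5 of 9 and 0 of 1 for IMQ+SHP099. The value of 1623 thus comes from 1 cell, as does the 36.0. With that limit, and with no test in these classes, the Sham libraries were the highest of the 6 in mature dendritic cells and the lowest in Langerhans cells.

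Over all dendritic and Langerhans cells, Ccl17 was at 83.1 and 101 in the Sham libraries, 12.9 and 32.3 after imiquimod and 38.4 and 47.0 after imiquimod with SHP099, with no overlap between Sham and the rest. The log2 fold change for IMQ against Sham was -2.07 ± 0.41 and did not pass (edgeR adjusted p = 0.0980). It passed in 4 of 14 alternatives, among them DESeq2 (adjusted p = 0.0126), no filter on low counts (edgeR adjusted p = 1.7e-05) and the fit without the first Sham library (edgeR adjusted p = 0.0116). Ccl22 in the same sum was at 342 and 381 for Sham, 167 and 551 for IMQ and 519 and 77.5 for IMQ+SHP099, and its log2 fold change of -0.05 ± 0.79 (edgeR) was smaller than its error. In that comparison edgeR called 0.425% of genes and 0 of the 3 members tested. Under an unadjusted p of 0.05 were 1 member, Ccl17, and 960 of the 8241 genes tested. DESeq2, which called 0.794% of genes, called Ccl17. The sum held 60 and 321 Cd209a dendritic cells in Sham and 21 and 14 in IMQ, and this shift was not tested as a part of the Ccl17 value. Mature dendritic cells were above Cd209a dendritic cells in 3 of 3 libraries with at least 5 cells of each, by 2.73 (SD 1.67) for Ccl17 and 8.29 (SD 3.45) for Ccl22 on the log2 scale (exact sign-flip p = 0.25, the smallest that 3 libraries allow).

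**Figure D4:**
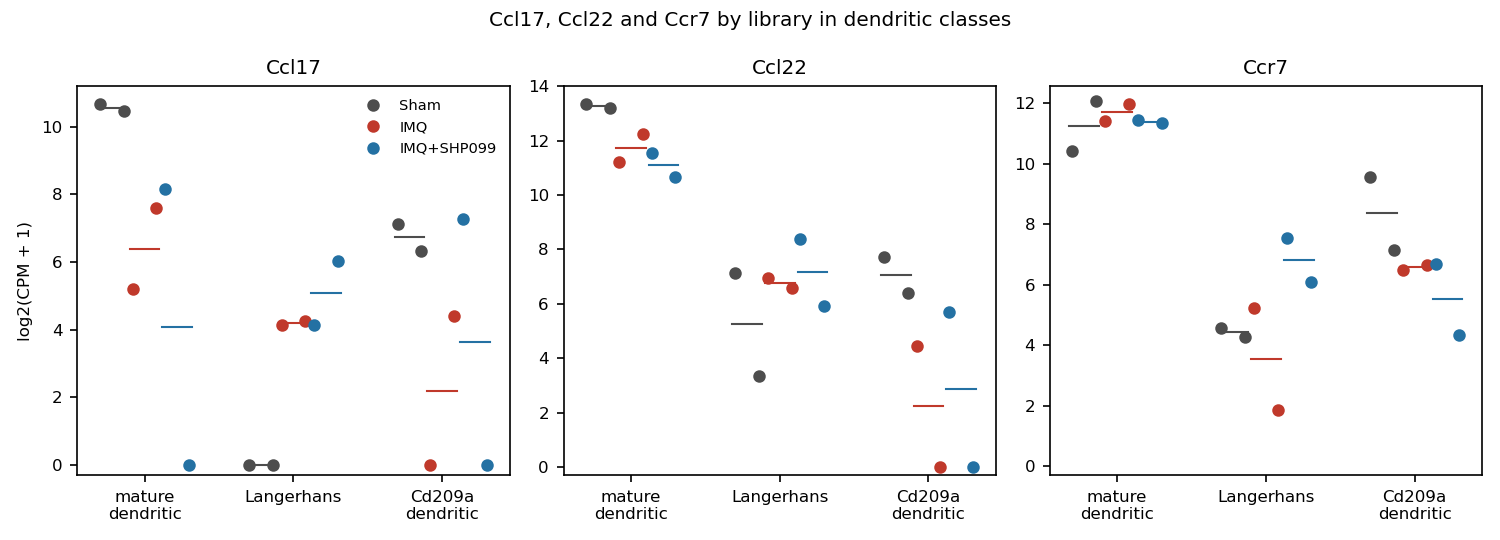
Ccl17, Ccl22 and Ccr7 by library in mature dendritic, Langerhans and Cd209a dendritic cells, as log2(CPM + 1) on the vertical axis of each panel, with points for libraries and a line at the mean of a group's 2 log2 values. Sham libraries are highest for Ccl17 and Ccl22 in mature dendritic cells, while Ccl17 in Langerhans cells is 0 in both Sham libraries. The Ccl17 value of mature dendritic cells in the first Sham library comes from 1 cell.

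Ccr4 (chr9:114490316-114504916, minus strand), the receptor of Ccl17 and Ccl22, had 540 UMIs in all. Regulatory T cells had 0 and 56.5 in the Sham libraries, 26.1 and 153 after imiquimod and 57.1 and 0 after imiquimod with SHP099. The other alpha-beta T cells had 0 to 37.8. Regulatory T cells exceeded epidermal gamma-delta T cells in 4 of 6 libraries, by 2.48 (SD 3.49) on the log2 scale (exact sign-flip p = 0.1875, adjusted p = 0.281), and under a stricter gate this difference turned to -0.49. The lymphocyte sum held 69 Ccr4 UMIs and did not pass the filter on low counts.

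Most Ccr4 UMIs of the Sham libraries lay in suprabasal keratinocytes, which held 65.3% and 58.9% of them. The level there was 6.61 and 12.7 for Sham, 0.957 and 0 for IMQ and 0.723 and 0.514 for IMQ+SHP099. The share of suprabasal cells with a UMI was 8.38% and 18.3% in the Sham libraries, 2.85% and 0% after imiquimod and 1.89% and 1.06% after imiquimod with SHP099. Both Sham libraries were above the other 4. Thinned to 2000 UMIs a cell, the shares were 1.80% and 3.87% for Sham, 0.264% and 0% for IMQ and 0.351% and 1.14% for IMQ+SHP099, levels near that of a single UMI. The 0 of 142 cells in the second IMQ library allows a level of up to 0.611, at 3 UMIs.

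In all keratinocytes Ccr4 fell from 2.75 and 5.47 in Sham to 0.386 and 0.2001 in IMQ, a log2 fold change of -3.39 ± 0.56 (edgeR adjusted p = 0.00785). Without the second IMQ library it was -2.98 and did not pass (edgeR adjusted p = 0.0732). Suprabasal cells fitted alone gave -3.56 ± 0.76 (edgeR adjusted p = 0.0105). UMIs of the T cell receptor genes Cd3e, Cd3d or Cd3g were in 3 of 133 and 3 of 86 Ccr4-bearing suprabasal cells of the 2 Sham libraries. These shares, 2.26% and 3.49%, stood beside 1.99% and 1.30% of the suprabasal cells without Ccr4. Their median depths were 14307 and 20804 UMIs against 13389 and 18665. In the first IMQ+SHP099 library 2 of 22 Ccr4-bearing suprabasal cells (9.09%) held such a UMI, against 1.14% of those without Ccr4. In the first IMQ library 0 of 11 did, against 3.47%. The part of T cell mRNA in the suprabasal Ccr4 values was not tested. Basal cells had 0.65 and 2.21 in Sham and 0 in both IMQ libraries.

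Ccl19 (chr4:42754525-42756577, minus strand) was found mostly in fibroblasts. Fibroblasts, which held 74.2% to 91.8% of each library's Ccl19 UMIs, had 56.6 and 67.7 in the Sham libraries, 53.5 and 41.6 after imiquimod and 108 and 93.6 after imiquimod with SHP099. The IMQ libraries were the lowest and the IMQ+SHP099 libraries the highest, with no overlap. The log2 fold change was -0.31 ± 0.25 for IMQ against Sham (edgeR adjusted p = 0.795) and 1.17 ± 0.26 for IMQ+SHP099 against IMQ (edgeR unadjusted p = 0.00223, adjusted p = 1). The second comparison did not pass in any of its 14 alternatives, which ranged from 0.97 to 1.39. Mural cells, the pericytes and smooth muscle of vessels, had 11.4 to 24.9. Mature dendritic cells held no Ccl19 UMI, and in the 3 libraries with at least 5 of them they were below fibroblasts, with a difference of -6.10 (SD 0.68) on the log2 scale (exact sign-flip p = 0.25).

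Ccr7 (chr11:99144196-99155077, minus strand) was high in mature dendritic cells of every library, with 1384 and 4271 for Sham, 2755 and 3996 for IMQ and 2764 and 2590.3 for IMQ+SHP099. The groups overlapped. Ccl22 and Ccr7 were found together in the same cell in 4 of 4 and 12 of 13 mature dendritic cells for Sham, 4 of 4 and 8 of 9 for IMQ and 8 of 9 and 1 of 1 for IMQ+SHP099. Mature dendritic cells exceeded Cd209a dendritic cells in Ccr7 by 4.98 (SD 0.29) on the log2 scale in 3 of 3 libraries (exact sign-flip p = 0.25). Langerhans cells had 22.6 and 18.4 in the Sham libraries, 36.1 and 2.60 after imiquimod and 186 and 67.5 after imiquimod with SHP099. Both IMQ+SHP099 libraries lay above the other 4, with no test in this class.

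Among T cells, Ccr7 was at 20.8 and 157 for Sham, 199 and 197 for IMQ and 0 and 51.5 for IMQ+SHP099 in the other alpha-beta T cells. Regulatory T cells had 223 and 66.5 in the Sham libraries, 60.9 and 123 after imiquimod and 28.5 and 26.3 after imiquimod with SHP099. The 0 is from 6 cells, which at 3 UMIs allows up to 229.7, and the regulatory T cell values of IMQ+SHP099 are 1 UMI each, so an order of these 2 groups was not detectable at this depth. All lymphocytes had 18.2 and 47.5 for Sham, 37.7 and 33.2 for IMQ and 8.66 and 16.2 for IMQ+SHP099. The log2 fold change for IMQ+SHP099 against IMQ was -1.51 ± 0.50 (edgeR unadjusted p = 0.0173, adjusted p = 1). In dendritic and Langerhans cells together Ccr7 changed by -0.14 ± 0.67 for IMQ against Sham (edgeR), within its error.

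With the filter on low counts, none of the 9 genes passed in any sum for IMQ+SHP099 against IMQ, where edgeR called 0% of all genes. At an unadjusted p under 0.05 were 0 of 7 members in keratinocytes, 3 of 5 in fibroblasts, 2 of 5 in lymphocytes and 0 of 3 in dendritic and Langerhans cells. DESeq2 called 0 members. Over all genes at that unadjusted p edgeR counted 373 of 14204 in keratinocytes and 119 of 14699 in fibroblasts. It counted 185 of 8829 in lymphocytes and 220 of 8241 in dendritic and Langerhans cells. In the same order DESeq2 called 14, 1, 0 and 2 genes at an adjusted p under 0.05, or 0.0661%, 0.00471%, 0% and 0.0124% of those it tested. For Ccl20 in keratinocytes the log2 fold change was 0.86 ± 0.60 and was -0.44 without the first IMQ+SHP099 library. Ccl27a in keratinocytes gave 0.94 ± 0.56 and Ccr4 -0.46 ± 0.60, and for both genes the IMQ and IMQ+SHP099 libraries overlapped. Ccl17 in dendritic and Langerhans cells gave 0.99 ± 0.44 and Ccl22 -0.12 ± 0.79. Ccl22 and Ccr7 in fibroblasts gave 3.95 and 3.90, values that the first IMQ+SHP099 library carried, since without it they were -1.48 and -1.53. With no filter on low counts both passed (3.92, edgeR adjusted p = 0.00152, and 3.86, edgeR adjusted p = 0.000107). These tests have 2 libraries a group, and a p that misses the threshold does not show equal levels.

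**Figure D5:**
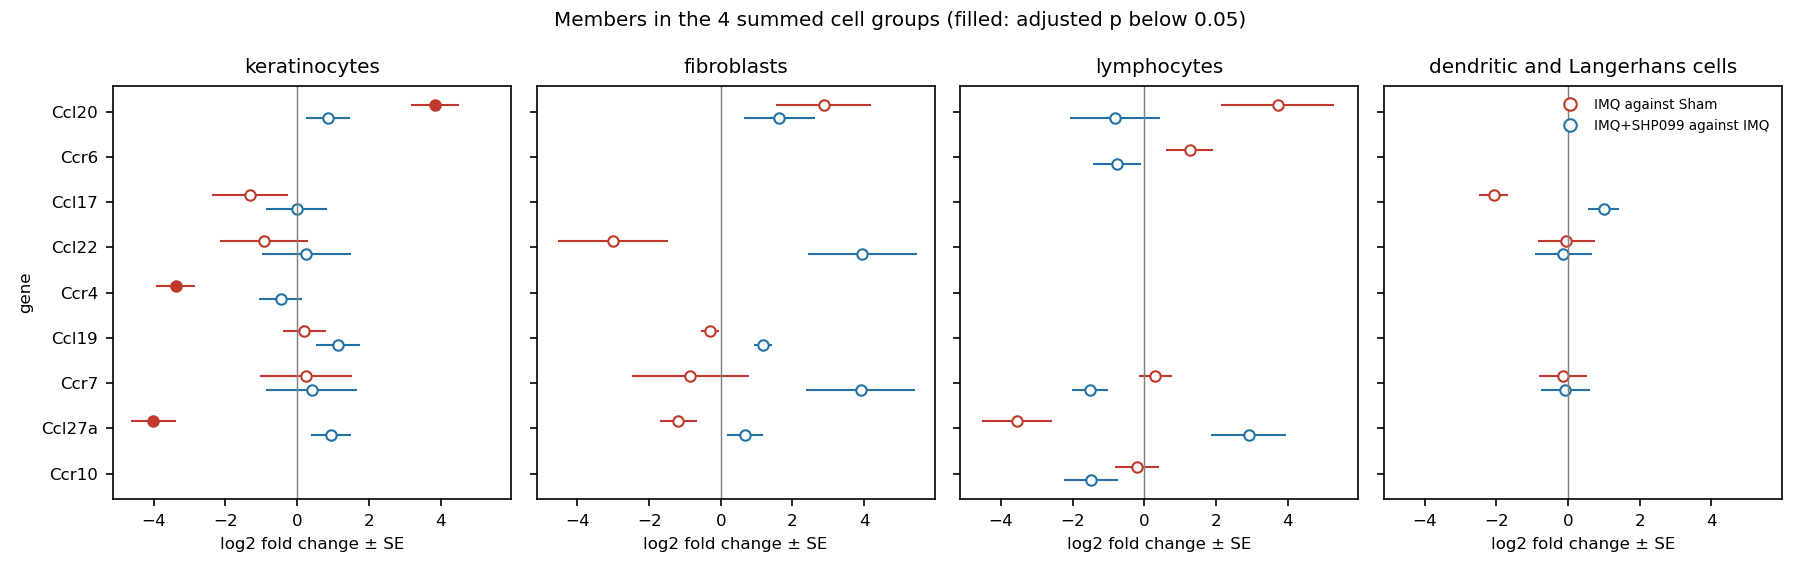
Log2 fold change ± SE of the 9 genes in the 4 summed cell groups, from the edgeR fit, for IMQ against Sham and for IMQ+SHP099 against IMQ; filled points have an adjusted p below 0.05 and genes under the filter on low counts have no point. The filled points are Ccl20 (3.85), Ccl27a (-4.01) and Ccr4 (-3.39) in keratinocytes for IMQ against Sham.

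Other genes of chemokine traffic were read from lists that name no member. In keratinocytes 5.13% of all genes tested were called higher with imiquimod and 7.42% lower, and the list counts are to be read beside these shares. Of 13 other CC chemokines tested in keratinocytes, 3 rose with imiquimod and 1, Ccl27b, fell, and the median log2 fold change was 0.54 beside -0.09 over all genes tested. The 3 were Ccl3, Ccl4 and Ccl5, inflammatory chemokines, with changes of 2.91, 3.52 and 3.48. Ccl4 was at 1.51 and 3.54 in the Sham libraries, 18.2 and 26.7 after imiquimod and 0.934 and 2.81 after imiquimod with SHP099. Lymphocyte markers summed to 74.9 to 113 CPM in Sham keratinocytes, 104 to 126 in IMQ and 76.5 to 119 in IMQ+SHP099, and myeloid markers to 69.6 to 540, 46.5 to 74.8 and 43.7 to 48.9. All 12 markers of each list had UMIs in both IMQ libraries. Their part in these 3 genes was not tested. Under a stricter gate the changes were 2.27, 3.35 and 3.16 and none of the 3 passed (edgeR adjusted p = 0.110, 0.0620 and 0.0576). In basal cells alone Ccl3 gave 0.84 and Ccl4 0.64, and in suprabasal cells alone Ccl4 gave 1.64 and Ccl5 1.77, all of them short of the threshold. Ccl5 in basal cells alone gave 2.67 and passed (edgeR adjusted p = 0.0379).

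Of 9 other CC or atypical chemokine receptors tested in keratinocytes, 1 rose and 3 fell, with a median of 0.27. The 3 that fell were the atypical receptors Ackr4, Ackr2 and Ackr3, which bind chemokines without the usual G protein signal. Ackr4, the scavenger of Ccl19 and related ligands, was at 24.3 and 23.5 for Sham, 0.659 and 1.36 for IMQ and 1.51 and 1.71 for IMQ+SHP099, a change of -4.35 ± 0.41 (edgeR adjusted p = 0.00113). The call of Ackr4 held in 16 of 16 alternatives. Ackr2, a scavenger of inflammatory CC chemokines, changed by -2.77 and passed in 10 of 15. Ackr3 changed by -1.35, and in suprabasal cells alone it was higher, at 1.78 (edgeR adjusted p = 0.0284). In all keratinocytes these 3 were lower in each of the 4 imiquimod-treated libraries than in either Sham library. Ccr3, the eosinophil receptor that rose, had 0 UMIs in Sham and 14 and 4 in IMQ.

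Of 17 inducers and regulators of these chemokines tested in keratinocytes 1 rose, Tnf, where 5.13% of all genes tested were called higher. Tnf was at 3.81 and 5.86 in the Sham libraries, 17.7 and 14.1 after imiquimod and 14.4 and 17.5 after imiquimod with SHP099, a change of 2.04 ± 0.27. The median of that list was 0.14. In fibroblasts, where edgeR called 0.571% of genes, 1 listed gene was called, Cxcl12, the ligand of Cxcr4. Cxcl12 rose from 292 and 351 in Sham to 1693 and 1556 in IMQ, a change of 2.41 ± 0.36 (edgeR adjusted p = 0.0473). That call held in 4 of 14 alternatives, with changes of 2.33 to 2.52, and was lost without the second Sham library and without either IMQ library (edgeR adjusted p = 0.0977, 0.260 and 0.170). No listed gene passed in lymphocytes or dendritic and Langerhans cells, or in any sum for IMQ+SHP099 against IMQ.

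Genes with the most similar pattern were ranked by Pearson correlation of log2(CPM + 1) over 95 sums of a library and a class, among 17212 genes, as a description of sums that share libraries and cell types. For Ccl20 they were Serpinb3b, Pla2g4e and Lipk, with r of 0.89 each. For Ccr6 the first was Ccr10 at 0.91, followed by Tnfrsf25 at 0.86 and Il17a at 0.84, the last being a marker of the gate. Ccl22 was led by Ffar4 at 0.90, H2-DMb2 at 0.84 and 4930512J16Rik at 0.80. Ccl17 was led by Dcstamp at 0.77, 4930512J16Rik at 0.75 and Cd209c at 0.72. Ccl19 ran with Epha3 at 0.89, Emx2os at 0.88 and Agtr1a at 0.86. Ccr7 ran with Gpr183 at 0.72, Cd83 at 0.71 and Il21r at 0.70. Ccr4 ran with Cd5 at 0.72, Izumo1r at 0.67 and Cd6 at 0.66, of which Cd5 and Cd6 are markers of the gate. Ccl27a ran with Kif21a at 0.77, Emp2 at 0.76 and Map1lc3a at 0.75. Ccr10 ran with Ccr6, then Slamf1 at 0.82 and Tnfrsf25 at 0.80.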

How the data were processed

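For each of 6 libraries the deposited tables give whole-number UMI counts by gene and barcode. The authors made them with Cell Ranger on GRCm38 (mm10), per the processing notes, and normalized nothing in them. Barcodes with 100000 or more UMIs, 6500 or more genes or 10% or more mitochondrial UMIs were left out, after the study's stated limits. Total UMIs over all barcodes of a library ranged from 53913865 to 188283327, so genes with few UMIs are measured with counting error only partly seen in the spread between libraries.

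Each cell was scored for marker lists as the mean over markers of log1p(UMIs per 10000), capped at the 0.99 quantile for the main classes and the 0.97 quantile for the subclasses and scaled to that cap. A class needed a score of 0.2 and a second score of at most 0.6 (main classes) or 0.7 (subclasses) of the first. Of 257 markers 256 were in the files. These limits were chosen after class sizes under a few settings had been seen. Mixed cells (3.59%), which include doublets, and low-scoring cells (4.06%) were left out of the classes. No doublet caller was run. A total of 881 cells (1.73%) lay near the limits.

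Counts were summed per library for keratinocytes, fibroblasts, lymphocytes, and dendritic and Langerhans cells. The sums were tested with edgeR 4.0.16 in R 4.3.3 (TMM, filterByExpr, quasi-likelihood test over all 6 libraries, Benjamini-Hochberg adjustment over all genes, threshold 0.05). DESeq2 1.42.0 was an alternative. The SE of a fold change was its size divided by the square root of F. Class pairs were compared on log2(CPM + 1) in libraries with at least 5 cells of both classes, by the exact two-sided sign-flip test. The edgeR test of IMQ against Sham was tried on simulated counts for each sum. Intervals and floors cover counting error only, and the floor was 3 UMIs. Fits by layer and tests of a difference of changes were chosen after seeing the data.

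The members and lists were chosen with earlier results of these data known. All 9 members were named, together with the 3 genes most like each member and every listed gene past the threshold, except in 1 list. The labels do not say that the 2 libraries of a group are independent beyond pooling different mice, so p-values measure the spread between these libraries. The result of that list, of other homing genes in keratinocytes, is not reported here.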

Additional observations from a re-analysis of the deposited data

Results flagged for a closer look

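The change of Ccl20 with imiquimod differed between keratinocyte layers. The suprabasal log2 fold change minus the basal one was 4.18 (edgeR with the library as a block, adjusted p = 0.00831), and it ranged from 3.39 to 5.18 when each library was left out, passing each time.

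The change of Ccl27a differed between keratinocytes and fibroblasts. The keratinocyte log2 fold change minus the fibroblast one was -2.83 (edgeR with the library as a block, adjusted p = 0.00458), and it ranged from -3.03 to -2.71 when each library was left out.

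Barcodes above the limits on UMIs, genes or mitochondrial share entered no comparison, and 2 members were higher there in both IMQ libraries than in both Sham libraries. Ccl20 was at 31.1 and 51.5 CPM in IMQ, 29.9 and 5.32 in Sham and 221 and 51.9 in IMQ+SHP099. Ccl19 was at 5.12 and 7.35 in IMQ, 1.19 and 3.12 in Sham and 0.835 and 1.54 in IMQ+SHP099. Neither difference was tested.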

How the results depend on the processing

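The calls of Ccl20, Ccl27a and Ccr4 in keratinocytes for IMQ against Sham held under every alternative run, except Ccl20 in basal keratinocytes only (0.43, adjusted p = 0.615) and Ccr4 without the second IMQ library (-2.98, adjusted p = 0.0732). Of the member fold changes under alternatives 505 kept direction and side of the threshold, 42 turned direction without being called, 11 gained and 2 lost the call. The 7 gains outside Ccl17 in dendritic and Langerhans cells came with no filter on low counts: for IMQ against Sham Ccl20 (2.91), Ccl22 (-2.96) and Ccl27a (-1.13) in fibroblasts and Ccl20 (3.71) and Ccl27a (-3.54) in lymphocytes, and for IMQ+SHP099 against IMQ Ccl22 (3.92) and Ccr7 (3.86) in fibroblasts. Where a value turned or moved, the cause was not tested. Depth limits Ccr4, Ccr6 and Ccr10, which have few UMIs in every class, and mature dendritic cells, of which a library held 1 to 13. Leaving out 1 library from a group of 2 assumes that the other varies like the rest.

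Genes called for IMQ against Sham in keratinocytes (1783) became 2723 with DESeq2, 3094 with no filter on low counts, and 496 to 2192 without each library in turn, lowest without the first (496) and second (709) IMQ library. In fibroblasts (84) they became 691 with DESeq2, 1370 with no filter, 2 with only the groups compared, 20 with mixed cells kept, 54 with a mitochondrial limit of 5%, and 0 to 404 without each library, the extremes without the second and the first Sham library. In lymphocytes (1) they became 98 with DESeq2, 539 with no filter, 2 with only the groups compared, 0 with mixed cells kept, 0 with the 5% limit, and 0 to 68 without each library, 68 without the second Sham library. In dendritic and Langerhans cells (35) they became 128, 615, 21, 1 and 20 under the same settings, and 1 to 833 without each library, 833 without the first Sham library. For IMQ+SHP099 against IMQ the count of 0 became 14 with DESeq2, 146 with no filter and 1 in basal keratinocytes only (0 to 1 without each library) in keratinocytes, 1 and 80 with DESeq2 and no filter in fibroblasts, 34 with no filter in lymphocytes, and 2 and 57 with DESeq2 and no filter in dendritic and Langerhans cells (0 to 1 without each library).

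With the replicate block the IMQ against Sham counts were 2562 in keratinocytes, 250 in fibroblasts, 148 in lymphocytes and 106 in dendritic and Langerhans cells, and the keratinocyte count for IMQ+SHP099 against IMQ was 1. Nothing in the labels says that a replicate number marks a shared batch or day. Deviations of libraries with the same number correlated at -0.01 to 0.40 over the sums (0.19, 0.40 and 0.15 in lymphocytes), and with 2 numbers a group it was not settled whether they pair the libraries. Replicate 1 had the larger share of keratinocytes in each group (70.8% against 21.7%, 16.6% against 7.78% and 62.2% against 5.92%). Under the block Ccl17 in dendritic and Langerhans cells passed (-2.12, adjusted p = 0.0435), Ccl22 turned to -0.26 in keratinocytes for IMQ+SHP099 against IMQ and to 0.018 in dendritic and Langerhans cells for IMQ against Sham, and Ccr10 turned to 0.089 in lymphocytes.

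Uncalled values also turned elsewhere. In keratinocytes, Ccl19 for IMQ against Sham became -0.27 with the stricter gate and Ccr7 -3.33 in basal cells only, while for IMQ+SHP099 against IMQ Ccl17 became 0.13 with no filter, 0.17 with the stricter gate and 0.75 with mixed cells kept, and Ccr4 became 0.34 in suprabasal cells only. In dendritic and Langerhans cells, Ccl22 for IMQ against Sham became 0.21 with mixed cells kept and 0.0049 with the 5% limit, Ccr7 became 0.036 with the 5% limit, and for IMQ+SHP099 against IMQ Ccl22 became 0.28 with the stricter gate and 0.25 with mixed cells kept, and Ccr7 0.68 and 0.39. Of the listed genes in keratinocytes, Ackr3 turned to 1.78 in suprabasal cells only (adjusted p = 0.0284). The class pair of Ccr4 became -0.49 with the stricter gate.

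Without each library in turn, IMQ against Sham gave in keratinocytes -0.10 to 0.57 for Ccl19, -2.86 to 0.55 for Ccl22 and -2.24 to 1.18 for Ccr7, in lymphocytes -0.85 to 1.28 for Ccr10 and -0.14 to 1.05 for Ccr7, and in dendritic and Langerhans cells -1.07 to 0.58 for Ccl22 and -1.16 to 0.49 for Ccr7. IMQ+SHP099 against IMQ gave in keratinocytes -0.44 to 1.55 for Ccl20, -1.01 to 1.45 for Ccl17, -7.29 to 2.15 for Ccl22, -8.10 to 2.88 for Ccr7 and -0.85 to 0.21 for Ccr4, in fibroblasts -0.93 to 2.54 for Ccl20, -1.48 to 5.00 for Ccl22 and -1.53 to 4.91 for Ccr7, in lymphocytes -6.96 to 0.41 for Ccl20, and in dendritic and Langerhans cells -2.19 to 0.93 for Ccl22 and -1.37 to 0.97 for Ccr7. With cells thinned to 2000 UMIs the mean share with a UMI went from 37.5% to 20.6% for Ccr6 in type 17 T cells, from 96.9% to 85.2% for Ccl22 in mature dendritic cells and from 60.4% to 27.3% for Ccl27a in basal cells. With at least 20 cells a class the pairs of Ccl17, Ccl22, Ccl19 and Ccr7 could not be run.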
